A study of Homo sapiens with 12 samples.

Results

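Platelet-derived growth factors (PDGF), fibroblast growth factors (FGF), hepatocyte growth factor (HGF) and vascular endothelial growth factor (VEGF) are secreted proteins that act through receptor tyrosine kinases. In the lung, fibroblasts and other mesenchymal cells receive PDGF signals through PDGFRA and PDGFRB, while the HGF and FGF7 that they secrete act mainly on epithelial cells, and VEGFA acts on endothelial cells. Myofibroblasts, the contractile and matrix-producing cells that TGF-β raises from fibroblasts, are known for a changed output of such factors. The 10 genes described here were taken by their symbols. The annotated table of the series holds 8 of them, while PDGFA and PDGFD are only in its table of raw counts. The 10 genes are the ligands PDGFA, PDGFC, PDGFD, FGF2, FGF7, HGF and VEGFA and the receptors PDGFRA, PDGFRB and FGFR1. They are 10 of the 25702 genes counted, and 9 of them were among the 9490 genes tested. PDGFA was too low for the test and is given by its reads.

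RNA was measured in WI-38 cells, an established line of normal human lung fibroblasts, after 1 day without (D1) or with TGF-β (D1+ TGF-β) and after 20 days without (D20) or with TGF-β (D20+ TGF-β), in 3 flasks per condition. All groups were grown in the same serum-containing medium. The D20 flasks had been seeded from 1 untreated flask and the D20+ TGF-β flasks from 1 treated flask, so that p-values measure the spread between flasks and not between independent cultures of the line. The labels give passages 2 to 3 for the day 1 flasks and 5 to 6 for the day 20 flasks, so that time and passage cannot be told apart. Under TGF-β the days also differ in the length of treatment, which cannot be told apart from them either. Libraries held between 8674488 and 18286197 counts. Values are in cpm, the counts of a gene scaled to the size of its library with TMM factors, and a difference is said to be called when its adjusted p was under 0.01 in edgeR's quasi-likelihood test. All 8 fibroblast markers had reads in every library, with a summed level between 13340.0 and 22889.9 cpm. The highest were VIM, COL1A1 and COL1A2, and the lowest value of any library was 33.4 cpm, for LUM. The 6 epithelial markers summed to at most 2.21 cpm and 6 immune markers to at most 0.465 cpm. In such bulk samples, fewer cells that express a gene and less RNA per cell cannot be told apart.

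Among the 12 libraries, 2 stood apart from the other flasks of their condition. The log2 values of D1 replicate 2 lay 0.21 (root mean square over the genes tested) from the mean of its condition, and those of D20+ TGF-β replicate 3 lay 0.19 from theirs, against 0.07 to 0.16 in the other libraries. The 10 genes followed these libraries. D1 replicate 2 was the highest of its 3 flasks for 8 of the 10 genes, and D20+ TGF-β replicate 3 was the lowest of its 3 flasks for 8 of the 10 genes. Results that rest on these libraries are given with and without them, an alternative chosen after the spread was seen.

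**Figure D1:**
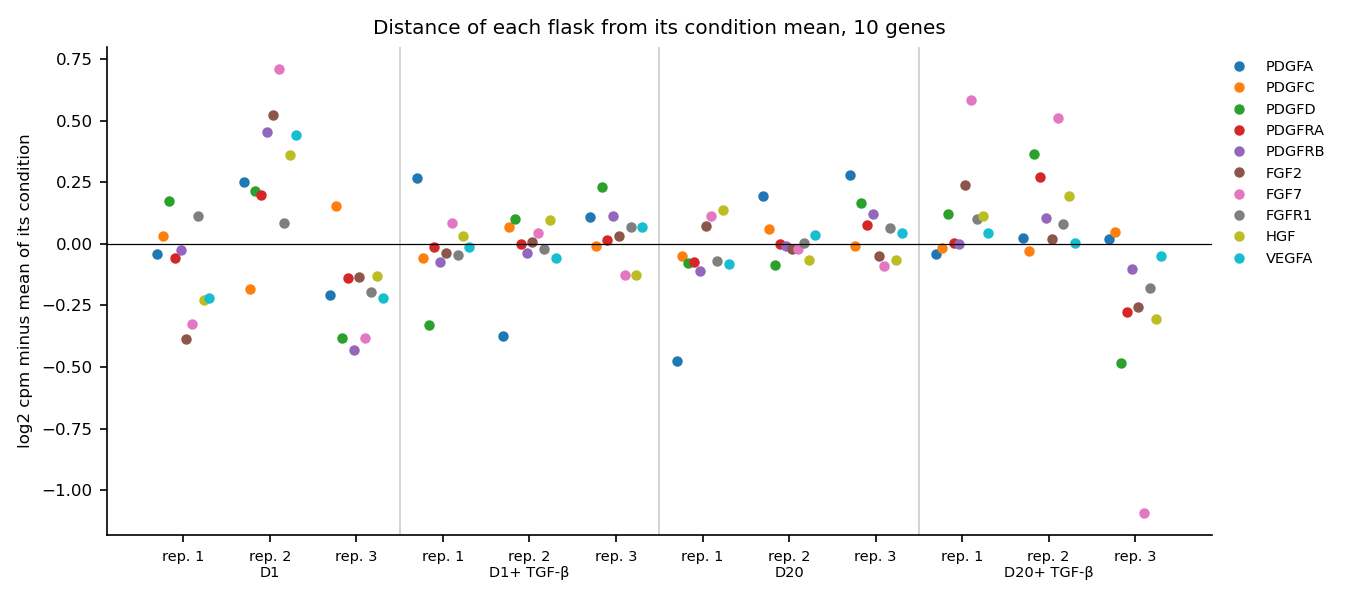
Distance of each flask from the mean of its condition, as log2 cpm on the vertical axis, for the 10 genes (colours) in the 12 flasks. In D1 replicate 2 most genes lie above 0, with FGF7 at 0.71, and in D20+ TGF-β replicate 3 most lie below 0, with FGF7 at -1.09.

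After 1 day of TGF-β, PDGFC rose and HGF, PDGFRA, FGFR1 and PDGFD fell. These 5 of the 9 genes tested were called in D1+ TGF-β vs D1, against 13.4% of all genes tested (6.89% higher and 6.5% lower). After 20 days, PDGFC was again higher with TGF-β, and PDGFRA and HGF were again lower, 3 of 9 genes against 27.5% of all genes in D20+ TGF-β vs D20 (12.8% higher and 14.7% lower). The comparisons of day 20 with day 1 had only called increases among the 9 genes, and under TGF-β these days also differ in the length of treatment. PDGFD, PDGFRA, PDGFRB, FGF7 and HGF were higher in D20 vs D1, 5 of 9 genes against 36.4% of all genes (18.9% higher and 17.6% lower). PDGFD, PDGFRA, FGFR1 and HGF were higher at day 20 vs day 1 under TGF-β, 4 of 9 genes against 34.8% of all genes (17.2% higher and 17.7% lower). PDGFD passed the minimum level for testing through the 6 day 20 libraries alone, so that it had to differ between the days. Without it, 4 of 8 and 3 of 8 genes were called in these comparisons of time. The 3 flasks of a condition lay wholly apart from those of the other for 6 of the 9 genes in D1+ TGF-β vs D1, against 36.4% of all genes, and for 6 of 9 in D20+ TGF-β vs D20, against 58.3%. Without PDGFD, they lay apart for 4 of 8 genes in D20 vs D1, against 55.6%, and for 5 of 8 at day 20 vs day 1 under TGF-β, against 63.2%.

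The median log2 fold change of the 9 genes was -0.50 in D1+ TGF-β vs D1, -0.15 in D20+ TGF-β vs D20, 0.43 at day 20 vs day 1 under TGF-β and 0.59 in D20 vs D1. Without PDGFD these medians were -0.21, -0.12, 0.41 and 0.34. The medians of all genes tested lay between -0.02 and 0.01. HGF and PDGFRA were the genes called lower with TGF-β at both days, as were 3.55% of all genes, and PDGFC was the gene called higher at both days, as were 3.16%. PDGFRA and HGF were called higher at day 20 both with and without TGF-β, as were 9.03% of all genes, and PDGFD, whose direction the minimum level fixed, is left out here.

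**Figure D2:**
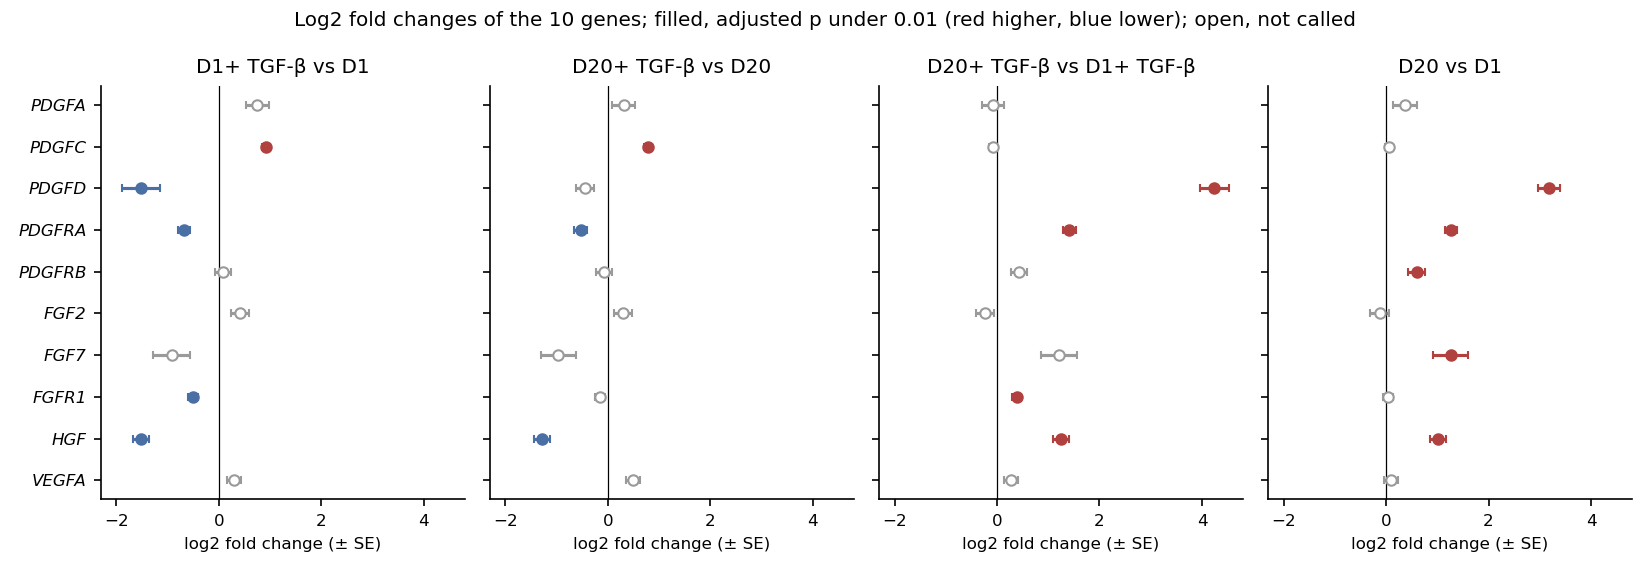
Log2 fold changes of the 10 genes (points) with their standard errors (bars) in 4 comparisons, filled where called (red higher, blue lower) and open where not. PDGFC lies right of 0 in both comparisons with TGF-β (0.91 and 0.78) and HGF left of 0 (-1.52 and -1.28). The called points of both comparisons of time all lie right of 0, where the minimum level for testing placed PDGFD.

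HGF, the ligand of the receptor MET and a growth and scatter factor for epithelial cells, was reduced with TGF-β at both days and raised with time. It stood at 199, 299 and 213 cpm at D1 and at 84.2, 88.0 and 75.3 cpm at D1+ TGF-β. It stood at 525, 456 and 456 cpm at D20 and at 211, 222 and 157 cpm at D20+ TGF-β. In both comparisons with TGF-β the treated flasks all lay below the untreated ones, and in both comparisons of time all day 20 flasks lay above the day 1 flasks. HGF was 2.87-fold lower in D1+ TGF-β vs D1 (log2 fold change -1.52 ± 0.16, SE, adjusted p = 1.57e-05) and 2.43-fold lower in D20+ TGF-β vs D20 (-1.28 ± 0.15, adjusted p = 2.09e-05). It was 2.02-fold higher in D20 vs D1 (1.02 ± 0.15, adjusted p = 9.23e-05) and 2.38-fold higher at day 20 vs day 1 under TGF-β (1.25 ± 0.16, adjusted p = 3.15e-05). All 4 calls were kept under every alternative setting tried, with adjusted p up to 0.000906.

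The genes around HGF moved in their own ways. MET, its receptor, was higher with TGF-β at both days, with means of 71.1 and 135 cpm at day 1 (log2 fold change 0.93) and of 38.7 and 70.4 cpm at day 20 (0.86). MET was called lower at day 20 than at day 1, by -0.87 without and -0.94 with TGF-β. PLAT, a plasminogen activator that can also cleave HGF to its active form, had a mean of 783 ± 667 cpm (SD) at D1 and 130.3 cpm at D1+ TGF-β, a called log2 fold change of -2.59, and was not called at day 20 (-1.40, adjusted p = 0.0209). The D1 flasks of PLAT stood at 442, 1552 and 356 cpm, and without D1 replicate 2 its log2 fold change at day 1 was -1.61 (adjusted p = 0.000412) and that at day 20 was called (-1.39, adjusted p = 0.000248). The HGF activators HGFAC, HPN and ST14 had at most 2 counts in any library, so that no change in them was detectable at this depth.

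PDGFRA, the receptor through which PDGFA and PDGFC act, showed the same directions as HGF. It stood at 371, 443 and 351 cpm at D1 and at 240.0, 242 and 245 cpm at D1+ TGF-β. It stood at 886, 932 and 982 cpm at D20 and at 639, 769.5 and 526 cpm at D20+ TGF-β. All treated flasks lay below the untreated ones of the same day, and all day 20 flasks lay above the day 1 flasks of the same treatment. PDGFRA was 1.61-fold lower in D1+ TGF-β vs D1 (log2 fold change -0.68 ± 0.12, adjusted p = 0.00115) and 1.45-fold lower in D20+ TGF-β vs D20 (-0.53 ± 0.12, adjusted p = 0.00294). It was 2.40-fold higher in D20 vs D1 (1.26 ± 0.12, adjusted p = 2.15e-06) and 2.66-fold higher at day 20 vs day 1 under TGF-β (1.41 ± 0.12, adjusted p = 2.36e-06). Of these calls, that of D20+ TGF-β vs D20 was lost for PDGFRA in a fit of only the 6 libraries compared (adjusted p = 0.01002), without D20 replicate 2 (adjusted p = 0.0112), without D20 replicate 3 (0.0154) and without D20+ TGF-β replicate 1 (0.0139).

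PDGFRB, the receptor for PDGF-BB and PDGF-DD that is typical of pericytes and fibroblasts, did not follow PDGFRA. It stood at 137, 192 and 104 cpm at D1 and 145, 149 and 165 cpm at D1+ TGF-β, with overlap of the flasks. It stood at 201, 216 and 236 cpm at D20 and 206, 221 and 191 cpm at D20+ TGF-β, again with overlap. The log2 fold changes with TGF-β were 0.08 ± 0.16 at day 1 and -0.08 ± 0.16 at day 20 (adjusted p = 0.748 and 0.711). Without both outlying libraries PDGFRB was called higher in D1+ TGF-β vs D1 (0.35, adjusted p = 0.00804), and its value in D20+ TGF-β vs D20 was -0.017 (adjusted p = 0.895). PDGFRB was 1.51-fold higher in D20 vs D1 (0.59 ± 0.16, adjusted p = 0.00729). That call stood near its threshold, since it was lost for PDGFRB with only the 6 libraries compared (adjusted p = 0.030), with no composition factor (0.0154) and in 9 of the 12 fits that left out a library, being kept without D1 replicate 2 or D20+ TGF-β replicates 2 or 3. The log2 fold change of PDGFRB was 0.41 (adjusted p = 0.0214) without D1 replicate 3 and 0.86 (adjusted p = 3.41e-05) without D1 replicate 2, and its highest adjusted p was 0.0334, without D20 replicate 3. At day 20 vs day 1 under TGF-β its log2 fold change was 0.43 ± 0.16 (adjusted p = 0.0393). Without D1 replicate 2 this was called for PDGFRB (0.44, adjusted p = 0.00224).

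RefSeq promoter sequences (assembly GRCh38.p14, 250 bases before an annotated start) were used for 7 of the 10 genes. Sequences for PDGFC, FGFR1 and VEGFA were not part of the search. Those of HGF and PDGFRA are printed because both genes fell with TGF-β and rose with time, and that of PDGFD because it had the largest change with time. They were searched on both strands for the AP-1 motif TGACTCA, the SP1 box GGGCGG, the HIF core ACGTG and the TEAD core GGAATG, matches being in capitals, and for the SMAD motif GTCT, which is not capitalised since 77.5% of all promoters hold it. The windows are HGF at chr7:81770048-81770297 on the minus strand, the upstream one of PDGFRA's annotated starts at chr4:54229043-54229292 on the plus strand, and PDGFD at chr11:104164148-104164397 on the minus strand.
HGF: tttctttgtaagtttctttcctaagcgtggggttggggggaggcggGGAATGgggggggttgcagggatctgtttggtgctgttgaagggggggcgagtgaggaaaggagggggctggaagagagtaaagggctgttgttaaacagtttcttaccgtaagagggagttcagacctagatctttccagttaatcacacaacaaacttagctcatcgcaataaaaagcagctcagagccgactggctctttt
PDGFRA: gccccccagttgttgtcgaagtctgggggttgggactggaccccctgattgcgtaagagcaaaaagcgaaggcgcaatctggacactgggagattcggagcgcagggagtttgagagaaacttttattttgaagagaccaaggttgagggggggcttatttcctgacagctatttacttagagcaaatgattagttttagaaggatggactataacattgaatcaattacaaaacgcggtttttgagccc
PDGFD: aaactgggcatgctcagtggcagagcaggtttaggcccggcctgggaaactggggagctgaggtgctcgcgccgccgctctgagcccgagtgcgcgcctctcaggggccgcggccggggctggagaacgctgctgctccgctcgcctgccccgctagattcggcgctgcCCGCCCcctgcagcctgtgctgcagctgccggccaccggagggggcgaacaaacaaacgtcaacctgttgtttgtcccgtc

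The HGF window held 1 TEAD core, beginning at position -204 from the start, and 11.9% of the 35116 promoters in the table held that motif. The PDGFD window held 1 SP1 box, as its complement CCGCCC at position -81, a motif in 42.6% of all promoters. The printed PDGFRA window held none of the 4 capitalised motifs, and its window for a downstream start held 2 SP1 boxes. GTCT was found 1 time in the HGF window, 2 times in the printed PDGFRA window and 0 times in that of PDGFD. AP-1 motifs, found in 4.2% of all promoters, and HIF cores, found in 18.5%, were in none of the windows of the 7 genes. The GC content was 46.8% in the printed PDGFRA window and 69.2% in the PDGFD window, against a median of 58.0% over all promoters. A match is a string of letters and not a site shown to be bound, a missing match says only that these letters are not in the window, and the start sites that WI-38 cells use were not measured.

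Among the PDGF ligands, PDGFC rose with TGF-β at both days. PDGFC, which needs proteolytic cleavage before it can bind its receptors, stood at 106, 91.1 and 115 cpm at D1 and at 188, 205 and 194 cpm at D1+ TGF-β. It stood at 104, 112 and 107 cpm at D20 and at 182, 181 and 191 cpm at D20+ TGF-β. The flasks fell into a treated and an untreated level with no overlap, and the flasks of both days overlapped within each level. PDGFC was 1.88-fold higher in D1+ TGF-β vs D1 (log2 fold change 0.91 ± 0.08, adjusted p = 4.97e-06) and 1.71-fold higher in D20+ TGF-β vs D20 (0.78 ± 0.08, adjusted p = 7.47e-06), and both calls were kept under every alternative tried. With time its log2 fold changes were 0.05 ± 0.08 without and -0.08 ± 0.08 with TGF-β (adjusted p = 0.608 and 0.402).

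PDGFD, the other PDGF ligand that is secreted as a latent form, was low at day 1 and several-fold higher at day 20. It stood at 2.53, 2.61 and 1.67 cpm at D1 (30, 40 and 20 counts) and at 0.581, 0.836 and 0.932 cpm at D1+ TGF-β (5, 15 and 8 counts). It stood at 19.5, 19.5 and 23.2 cpm at D20 and at 16.1, 19.1 and 10.5 cpm at D20+ TGF-β. No flask of day 1 came near those of day 20. PDGFD was 9.03-fold higher in D20 vs D1 (log2 fold change 3.17 ± 0.22, adjusted p = 1.76e-07) and 18.9-fold higher at day 20 vs day 1 under TGF-β (4.24 ± 0.28, adjusted p = 4.74e-07). PDGFD reached the minimum of 10 cpm only in the 6 day 20 libraries, so these adjusted p are no support for a difference between the days. At day 1 it was 2.86-fold lower with TGF-β (-1.52 ± 0.38, adjusted p = 0.0098), a call on few counts. It was lost with only the 6 libraries compared (adjusted p = 0.0135) and in 9 of the 12 fits leaving out a library, being kept for PDGFD without D1 replicate 3 or D20+ TGF-β replicates 2 or 3, and the highest adjusted p was 0.0483, without D1+ TGF-β replicate 2. At day 20 all treated flasks lay below the untreated ones (-0.45 ± 0.17, adjusted p = 0.0491).

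PDGFA, the classical ligand of PDGFRA, was near the lower limit of detection, with 24 to 72 counts per library. It stood at 2.36, 2.94 and 2.09 cpm at D1 and 5.23, 3.29 and 4.66 cpm at D1+ TGF-β. It stood at 2.29, 3.73 and 3.97 cpm at D20 and 4.04, 4.24 and 4.23 cpm at D20+ TGF-β. The treated flasks lay above the untreated ones at both days, by little at D20. In a fit of all 20434 genes with a count, its log2 fold change was 0.75 ± 0.23 in D1+ TGF-β vs D1 (adjusted p = 0.0286) and 0.31 ± 0.22 in D20+ TGF-β vs D20 (adjusted p = 0.364). Without D1 replicate 2 and D20+ TGF-β replicate 3 the first of these was called for PDGFA (0.91, adjusted p = 0.00148). PDGFB, which encodes the ligand shared by both receptors, had at most 51 counts in a library and was not tested.

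**Figure D3:**
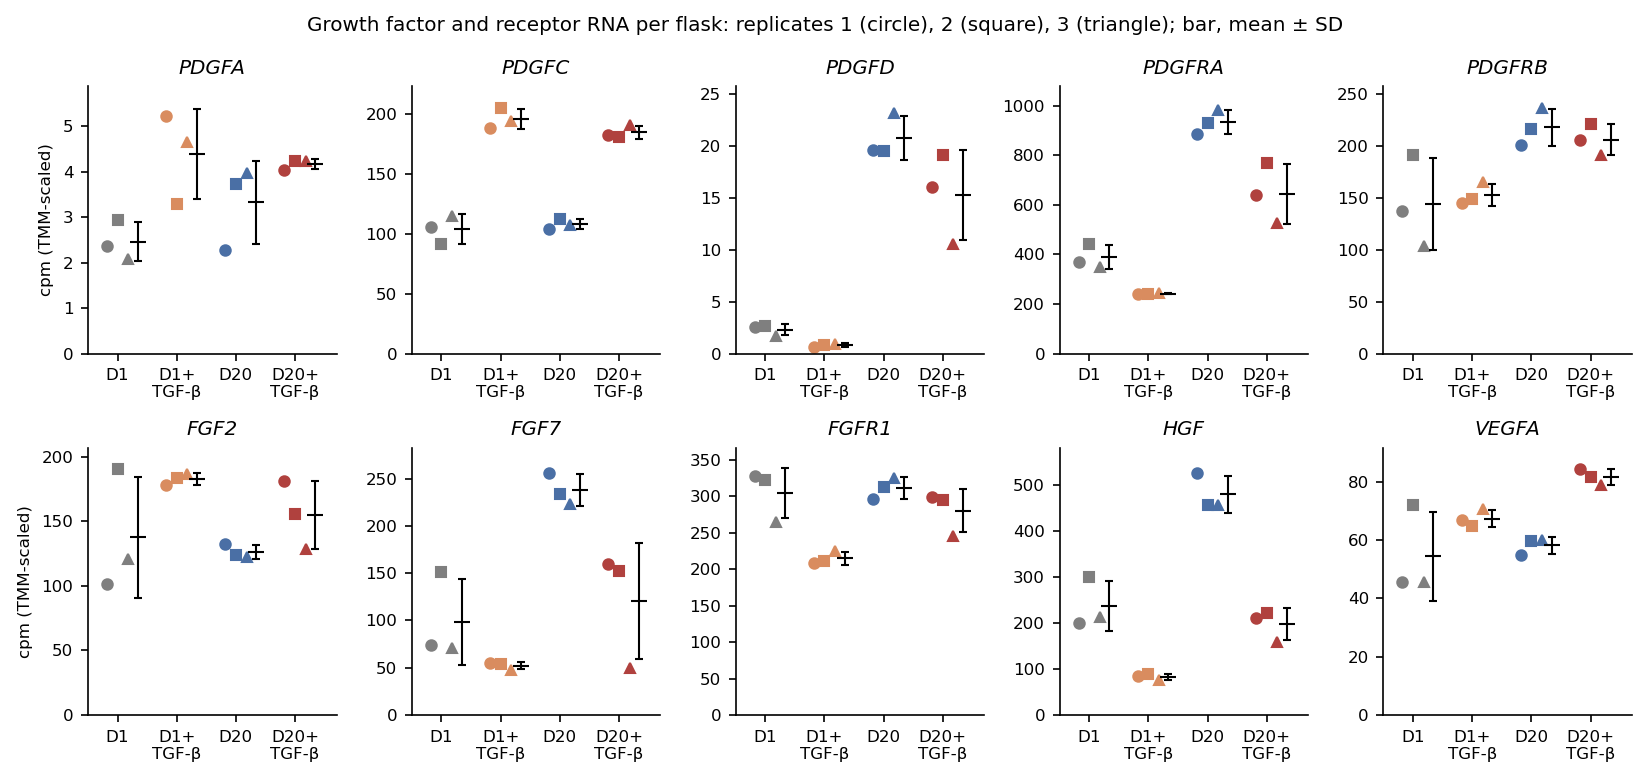
TMM-scaled cpm of each gene (vertical axes from 0) in the 3 flasks of each condition, replicates 1 to 3 as circle, square and triangle, with the mean and SD as a bar beside them. PDGFC has 2 levels set by treatment, about 104 to 108 cpm and 185 to 196 cpm in the means, while HGF and PDGFRA are highest at D20 and lowest at D1+ TGF-β.

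FGF2 and FGF7 are FGF ligands with different targets, FGF2 acting on FGFR1 of mesenchymal cells and FGF7 on an FGFR2 isoform of epithelial cells. FGF2 stood at 101, 190.3 and 121 cpm at D1 and at 178, 184 and 187 cpm at D1+ TGF-β. It stood at 132, 124 and 122 cpm at D20 and at 181, 155 and 128 cpm at D20+ TGF-β. The flasks overlapped in all comparisons and none was called, the log2 fold changes being 0.41 ± 0.18 in D1+ TGF-β vs D1 (adjusted p = 0.115) and 0.30 ± 0.18 in D20+ TGF-β vs D20 (adjusted p = 0.201). At day 1 the overlap came from D1 replicate 2, and without this library FGF2 was called higher in D1+ TGF-β vs D1 (0.73 ± 0.12, adjusted p = 0.000492). Without D20+ TGF-β replicate 3 as well, FGF2 was called higher in D20+ TGF-β vs D20 (0.44, adjusted p = 0.000156).

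FGF7, also called keratinocyte growth factor, was higher at day 20 and had the largest deviation of the 10 genes in both outlying libraries. It stood at 73.8, 151 and 71.0 cpm at D1 and at 55.3, 53.8 and 47.9 cpm at D1+ TGF-β. It stood at 256, 234 and 223 cpm at D20 and at 160.1, 152 and 50.1 cpm at D20+ TGF-β. All treated flasks lay below the untreated ones at each day, but D1 replicate 2 was far above the other D1 flasks and D20+ TGF-β replicate 3 at the level of D1+ TGF-β. FGF7 was 2.40-fold higher in D20 vs D1 (log2 fold change 1.26 ± 0.34, adjusted p = 0.00782). Its log2 fold changes were 1.21 ± 0.36 at day 20 vs day 1 under TGF-β (adjusted p = 0.0123), -0.92 ± 0.36 in D1+ TGF-β vs D1 (adjusted p = 0.0765) and -0.97 ± 0.34 in D20+ TGF-β vs D20 (adjusted p = 0.0356). Without the 2 outlying libraries these changes of FGF7 were smaller with TGF-β, -0.46 and -0.59, and larger with time, 1.70 in D20 vs D1 and 1.57 at day 20 vs day 1 under TGF-β, and all 4 were called (adjusted p between 2.87e-12 and 0.000204). The call in D20 vs D1 was lost for FGF7 in DESeq2 (adjusted p = 0.0107) and in 8 of the 12 fits that left out a library, being kept without D1 replicate 2 or any of the D20+ TGF-β replicates. The highest adjusted p of FGF7 were 0.039 without D1 replicate 1 and 0.0406 without D1 replicate 3, where its log2 fold changes were 1.09 and 1.07. FGF7 is known to have pseudogene copies elsewhere in the genome, and whether they share reads with it was not tested.

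FGFR1, the main FGF receptor of fibroblasts, was lower with TGF-β at day 1. It stood at 327, 321 and 264 cpm at D1 and at 208, 211 and 225 cpm at D1+ TGF-β. It stood at 296, 312 and 325 cpm at D20 and at 299, 295 and 246 cpm at D20+ TGF-β. The treated flasks lay apart from the others at day 1 and overlapped with the untreated ones at day 20. FGFR1 was 1.42-fold lower in D1+ TGF-β vs D1 (log2 fold change -0.50 ± 0.10, adjusted p = 0.00187) and 1.30-fold higher at day 20 vs day 1 under TGF-β (0.38 ± 0.10, adjusted p = 0.00481). In D20+ TGF-β vs D20 and D20 vs D1 its log2 fold changes were -0.15 ± 0.09 and 0.03 ± 0.09 (adjusted p = 0.215 and 0.80). Without D1+ TGF-β replicate 1 or 2 both calls of FGFR1 were lost, with adjusted p of 0.0128 and 0.0134 in D1+ TGF-β vs D1 and of 0.0235 and 0.0221 at day 20 vs day 1 under TGF-β. The latter call was also lost for FGFR1 without D20+ TGF-β replicate 1 or 2 (adjusted p = 0.0257 and 0.0231). FGFR2 had 0 counts in all libraries, which allows up to 3 counts, and FGFR3 at most 6 counts. FGFR4 had 12 to 112 counts per library and was not tested. Its mean level on day 1 was 4.96 ± 2.05 cpm (SD) in untreated flasks and 1.58 ± 0.23 cpm in treated ones. The day 20 means of FGFR4 were 5.53 ± 1.17 cpm untreated and 2.28 ± 0.51 cpm treated.

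VEGFA, a main signal for the growth of new vessels, missed the call in D20+ TGF-β vs D20 by little and was not called in the other comparisons of edgeR on all 12 libraries. It stood at 45.6, 72.1 and 45.5 cpm at D1 and at 66.8, 64.8 and 70.6 cpm at D1+ TGF-β. It stood at 54.9, 59.6 and 60.0 cpm at D20 and at 84.2, 81.8 and 78.9 cpm at D20+ TGF-β. The flasks overlapped at day 1, through D1 replicate 2 alone, and lay apart at day 20, with the treated flasks higher. The log2 fold changes of VEGFA were 0.30 ± 0.14 in D1+ TGF-β vs D1 (adjusted p = 0.133) and 0.49 ± 0.14 in D20+ TGF-β vs D20 (adjusted p = 0.0115). Without D1 replicate 2 VEGFA was called higher in both, by 0.57 ± 0.07 (adjusted p = 5.67e-05) and 0.50 ± 0.06 (adjusted p = 1.63e-05), and with time by 0.36 in D20 vs D1 (adjusted p = 0.000686) and 0.29 at day 20 vs day 1 under TGF-β (adjusted p = 0.00118). On all libraries, DESeq2 also called VEGFA in D20+ TGF-β vs D20 (0.50, adjusted p = 0.00265), as did edgeR with no gene filter (0.50, adjusted p = 0.00209) or no composition factor (0.53, adjusted p = 0.00755) and the deposited log2 values (0.50, adjusted p = 0.00918). In all, this call was made in 10 of 23 alternatives and not in the others, where adjusted p reached 0.0442. The VEGF receptors FLT1, KDR and FLT4 were not tested, with at most 80, 16 and 5 counts in a library.

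Between genes, levels were compared as cpm per kilobase of the annotated transcript. At D1 the order was PDGFRA (60.9), FGFR1 (53.4), HGF (40.6), PDGFRB (25.3), PDGFC (22.8), FGF2 (20.7), FGF7 (18.6), VEGFA (15.1), PDGFA (0.899) and PDGFD (0.592). The flasks overlapped between neighbours from PDGFRA to HGF and from PDGFRB to VEGFA, so that only the steps from HGF to PDGFRB and below VEGFA were larger than the spread. At D1+ TGF-β, PDGFC (42.9) stood first, apart from PDGFRA (37.9) and FGFR1 (37.7), which overlapped, while HGF was seventh at 14.1. At D20, PDGFRA (146) and HGF (82.2) stood first, followed by FGFR1 (54.6), FGF7 (44.7), PDGFRB (38.2) and PDGFC (23.6), each apart from the next. At D20+ TGF-β, PDGFRA (101) stood apart from FGFR1 (49.1) and PDGFC (40.4), and the flasks of neighbours overlapped from PDGFRB (36.2) down to VEGFA (22.6). PDGFA and PDGFD were the lowest in every condition, PDGFD reaching 5.40 at D20 and PDGFA 1.60 at D1+ TGF-β.

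**Figure D4:**
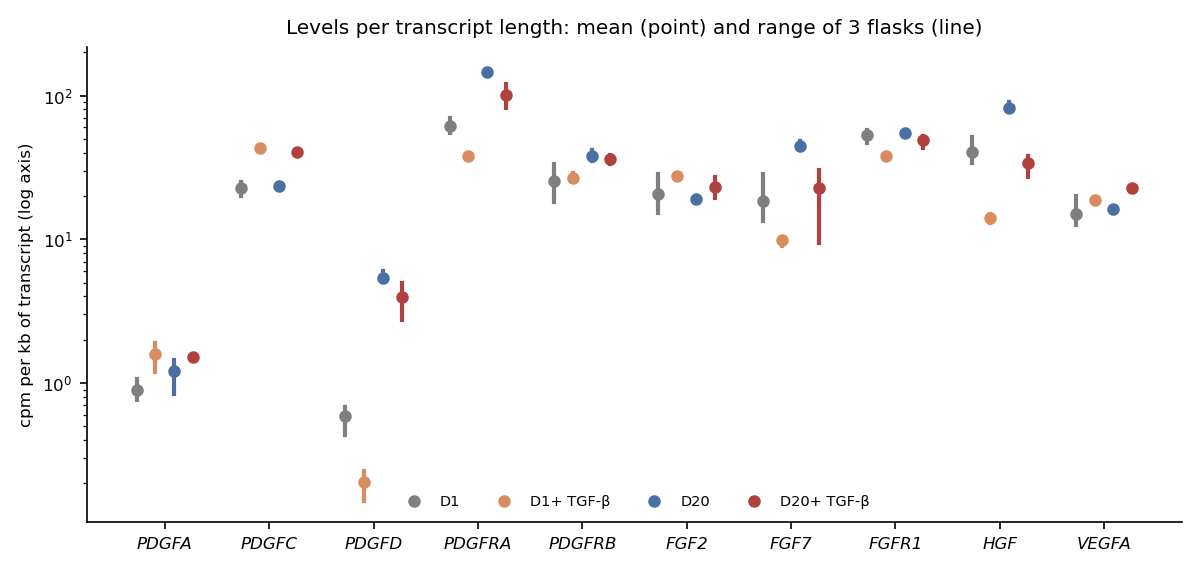
Level of each gene per kilobase of transcript (log axis), as the mean (point) and the range (line) of 3 flasks in each condition. PDGFRA is highest at D20 (146 cpm per kb), PDGFC is above all others at D1+ TGF-β (42.9), and PDGFD spans 0.204 at D1+ TGF-β to 5.40 at D20.

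Whether the response to TGF-β differed between day 1 and day 20 was tested by the difference of both responses. None of the 9 genes was called in edgeR, DESeq2 or limma-voom on the 12 libraries, against 10.4% of all genes in edgeR, and 2 of 9 had an unadjusted p under 0.05. These were PDGFD, with responses of -1.52 at day 1 and -0.45 at day 20 (difference 1.07 ± 0.42, adjusted p = 0.0865), and FGFR1, with responses of -0.50 and -0.15 (difference 0.35 ± 0.13, adjusted p = 0.0817). Without the 2 outlying libraries the difference of FGFR1 was called (0.40, adjusted p = 0.00787). For PDGFC, HGF and PDGFRA the differences were -0.14 ± 0.11, 0.24 ± 0.21 and 0.15 ± 0.17 (adjusted p = 0.421, 0.461 and 0.567).

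The other genes of these pathways were counted in 6 lists. Over all genes tested, 6.89% were called higher and 6.5% lower in D1+ TGF-β vs D1. In D20+ TGF-β vs D20 these shares were 12.8% and 14.7%. Of 17 other ligands 4 were high enough to be tested. VEGFC, a ligand for lymphatic vessels, rose with TGF-β at both days (log2 fold changes 0.65 and 0.53), whereas FGF1 rose at day 1 (1.08) and fell at day 20 (-0.75). VEGFB was called in D20+ TGF-β vs D20 (0.73), and FGF5 in neither comparison. The median of the 4 was 0.41 at day 1 and 0.24 at day 20. Without D20+ TGF-β replicate 3, FGF5 was called lower in D20+ TGF-β vs D20 (-0.56, adjusted p = 0.00139). Without both outlying libraries FGF5 was called there too (-0.55, adjusted p = 0.000141), and VEGFB was called lower in D1+ TGF-β vs D1 (-0.32, adjusted p = 0.00646).

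Of 18 other receptors and co-receptors 10 were tested, with 3 higher and 2 lower in D1+ TGF-β vs D1 and 5 higher and 5 lower in D20+ TGF-β vs D20. Over all genes, 6.89% were called higher and 6.5% lower at day 1, and 12.8% and 14.7% at day 20. The neuropilins, co-receptors of VEGF, were among those that rose, NRP2 by 0.71 and 0.76 and NRP1 by 1.31 at day 20 (0.45 at day 1, adjusted p = 0.104). Heparan sulphate proteoglycans, which hold FGF, HGF and VEGF at the cell surface, moved apart from each other. SDC1 was higher with TGF-β at both days (0.54 and 0.70), SDC3 (-0.61 and -1.04) and GPC1 (-0.63 and -1.14) were lower at both days, and SDC2 (-1.04) and SDC4 (-0.89) were lower at day 20. PDGFRL, a receptor-like protein, was called higher at day 20 (0.77) and FGFRL1, an FGF receptor without a kinase domain, lower (-0.35). The call of FGFRL1 was lost without D20+ TGF-β replicate 3 (-0.32, adjusted p = 0.0196). The medians of the 10 were 0.26 and 0.17.

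Of 18 genes of ligand processing and binding 6 were tested. SPARC, a matrix protein that binds PDGF, rose at day 1 (1.09), where PLAT fell, and A2M, a protease inhibitor that binds growth factors, fell at day 20 from a mean of 479.5 to 19.2 cpm (-4.63). The median of the 6 was -0.28 at day 1 and -0.37 at day 20.

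Of 21 docking and signal proteins behind the receptors 20 were tested. In D1+ TGF-β vs D1 only FRS2, the docking protein of FGF receptors, was called (0.41), and in D20+ TGF-β vs D20 6 were lower and none higher, namely GRB2 (-0.38), SHC1 (-0.59), SOS2 (-0.43), CRK (-0.44), NCK1 (-0.35) and MAPK3 (-0.64). Of all genes, 6.89% were called higher and 6.5% lower at day 1, and 12.8% and 14.7% at day 20. Without D20+ TGF-β replicate 3 the calls of SOS2 and NCK1 were lost (adjusted p = 0.020 and 0.0354), and without both outlying libraries 3 of the 20 were higher and 2 lower at day 1 and 2 higher and 6 lower at day 20. The medians were 0.02 and -0.17. Of 15 feedback inhibitors and transcripts known to follow ERK activity 12 were tested. DUSP6, a phosphatase for ERK, was called lower at day 1 (-0.42). At day 20, SPRY2 (0.58), SPRED2 (0.40), ETV1 (0.88), ETV4 (1.59), ETV5 (0.59) and EGR1 (0.78) were higher with TGF-β and SPRED1 lower (-0.43), against 12.8% and 14.7% of all genes. The call of SPRED2 was lost without D20+ TGF-β replicate 3 (0.30, adjusted p = 0.0191). Without both outlying libraries 4 of the 12 were higher and 3 lower at day 1, and 6 higher and 2 lower at day 20, beside the 2642 of all 9490 genes called at day 1 in that fit. The medians of the 12 were -0.22 at day 1 and 0.34 at day 20.

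Of 13 genes of oxygen sensing around VEGFA 10 were tested, with 0 higher and 3 lower at day 1 and 0 higher and 4 lower at day 20. The shares of all genes called lower were 6.5% at day 1 and 14.7% at day 20, and those called higher 6.89% and 12.8%. EPAS1, a hypoxia-inducible factor, fell by 0.82 at day 1 and 1.71 at day 20 on the log2 scale. The hypoxia-responsive genes ADM (-0.77 and -1.16) and NDRG1 (-0.71 and -0.58) were lower at both days, and HIF1AN at day 20 (-0.52). HIF1A had log2 fold changes of 0.35 and 0.37 (adjusted p = 0.236 and 0.170), and without both outlying libraries it was called higher at both days (0.69 and 0.57), as 1 of 10 and 2 of 10 genes then were. That fit called 2642 of all 9490 genes at day 1, in either direction, against 1271 on all libraries. The medians of the 10 were -0.12 and -0.01.

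With time and no TGF-β (D20 vs D1), against 18.9% of all genes called higher and 17.6% lower, 0 of the 4 other ligands were called higher and 3 lower, 3 of the 10 receptors higher and 3 lower, and 2 of the 6 processing genes higher and 0 lower. Of the docking proteins 6 were higher and 2 lower, of the feedback list 0 higher and 6 lower, and of the oxygen-sensing list 5 higher and 0 lower. At day 20 vs day 1 under TGF-β, against 17.2% and 17.7% of all genes, the oxygen-sensing list had 4 higher and 0 lower, the docking proteins 4 and 2, the feedback list 2 and 3, the receptors 0 and 3, the processing genes 1 and 3 and the ligands 1 and 3.

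**Figure D5:**
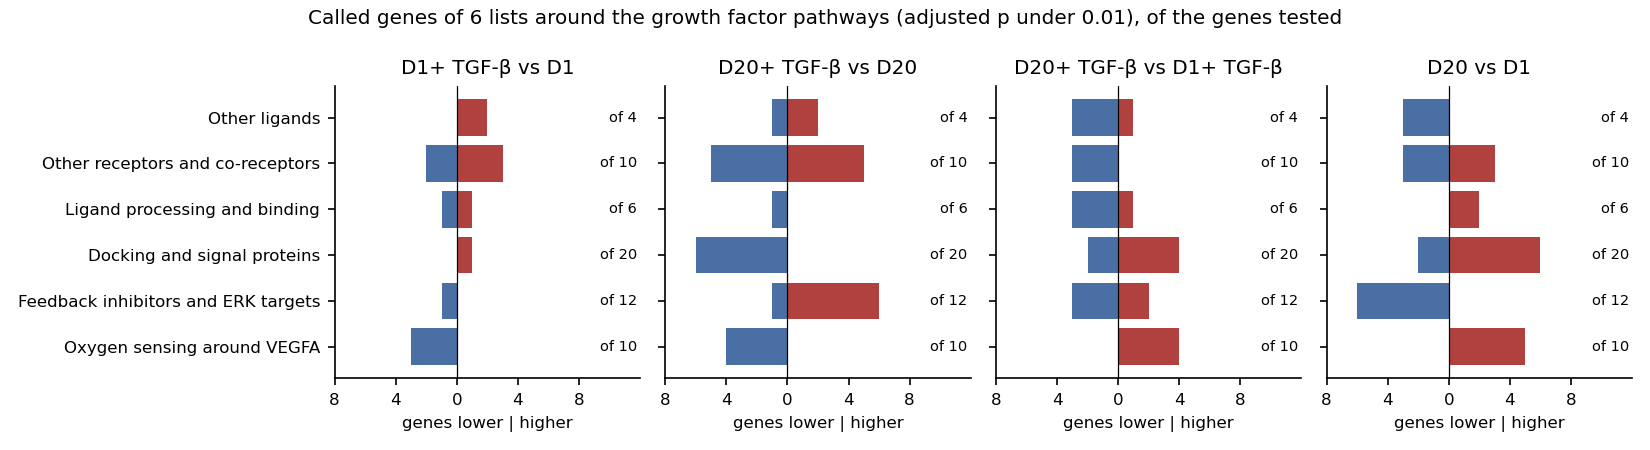
Number of genes called higher (red, to the right) and lower (blue, to the left) in each of 6 lists, in 4 comparisons, with the number tested at the right of each bar. Docking and signal proteins and the oxygen-sensing list show only lower genes in D20+ TGF-β vs D20 on all 12 libraries (6 of 20 and 4 of 10), and the feedback list shows 6 higher and 1 lower of 12. In that comparison 12.8% of all genes were called higher and 14.7% lower.

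Marker genes moved beside these results. Over all genes tested, 18.9% were called higher and 17.6% lower in D20 vs D1. These shares were 12.8% and 14.7% in D20+ TGF-β vs D20, and 6.89% and 6.5% in D1+ TGF-β vs D1. Of 6 proliferation genes 6 were lower in D20 vs D1, the summed level being 650.3 to 1034 cpm at D1 and 109 to 134 cpm at D20, and 6 were higher in D20+ TGF-β vs D20 (244 to 410.1 cpm at D20+ TGF-β). Of 8 fibroblast markers 5 were higher in D20 vs D1, among them DCN (1.86), LUM (2.44) and COL3A1 (1.74). With TGF-β, COL1A1 (1.09), COL1A2 (0.51) and FAP (1.14) were higher at day 1, and at day 20 COL1A1 (0.99) and FAP (1.51) were higher and THY1 (-1.20) and DCN (-0.98) lower. Of 6 genes of the TGF-β response 5 rose in D1+ TGF-β vs D1, with ACTA2 at mean levels of 180.0 cpm without and 754 cpm with treatment (2.07). In D20+ TGF-β vs D20 POSTN rose (3.32), CNN1 fell (-0.44), and ACTA2 had a log2 fold change of 0.13 (adjusted p = 0.554). The summed level of 6 endothelial markers spanned 45.6 to 79.2 cpm without and 34.7 to 40.9 cpm with TGF-β at day 1, and 219 to 246 cpm without and 76.5 to 149 cpm with TGF-β at day 20, and nearly all of it was TEK. CDH5 was at 0 in every library and PECAM1 had at most 5 counts. Of the mural cell markers, RGS5 was higher in D20+ TGF-β vs D20 (1.88), with a wide spread of 66.0 ± 40.4 cpm (SD) against 18.0 ± 1.58 cpm. NOTCH3 was lower (-1.19), and CSPG4 was not called (-0.47, adjusted p = 0.0151). MYH11 had at most 18 counts, and KCNJ8, not tested, had means of 0.529 cpm at D20 and 3.10 cpm at D20+ TGF-β. The part of cell division or of these markers in the values of the 10 genes was not tested.

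For 4 of the genes the closest patterns among all genes tested were sought, by the root mean square difference of centred log2 cpm over the 12 libraries. For HGF they were FENDRR (0.15), a non-coding RNA, ST3GAL5 (0.17) and PLEKHH2 (0.23). For PDGFRA they were C1RL (0.11), FAM117B (0.14) and PIK3IP1 (0.15). For PDGFRB they were PPIC (0.11), TTC17 (0.11) and ELF2 (0.12), and for VEGFA they were RMND5A (0.10), ITGB5 (0.11) and DNAJC3 (0.11). The spread of the gene itself around its mean was 0.92 for HGF, 0.75 for PDGFRA, 0.34 for PDGFRB and 0.28 for VEGFA, so that a close match says less for PDGFRB and VEGFA.

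In the GENCODE annotation of GRCh37, HGF lies on chromosome 7 (81328326 to 81399754, minus strand) and PDGFRB on chromosome 5 (149493402 to 149535435, minus strand), with no other annotated gene over them. PDGFRA (chromosome 4, 55095447 to 55164412, plus strand) shares its strand with an unnamed protein-coding model. On the opposite strand, FGF2 overlaps NUDT6, FGF7 overlaps FAM227B, FGFR1 overlaps LETM2, PDGFD overlaps DDI1, and VEGFA and PDGFC overlap unnamed transcripts. The kit marked strand, but whether the counting used it is not given in the sources used here, so that reads of such overlapping genes might not be told apart.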

How the data were processed

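RNA from 12 flasks was sequenced on a NextSeq 500, paired end, from a directional kit. The authors trimmed reads with Trimmomatic, aligned them with Rsubread to hg19, and deposited whole-number counts per gene for each of 4 lanes per library, and limma-voom log2 values for 9412 genes that were used here as an alternative only. The counting program and its gene models are not given in the sources used here. No row lacked a gene.

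Lanes were summed. Genes at 10 cpm or more in at least 6 of 12 libraries (9490) were tested with edgeR 4.0.16 (R 4.3.3) by its quasi-likelihood test, with TMM factors and 1 mean per condition over all 12 libraries. P-values were adjusted by Benjamini-Hochberg within a comparison and called under 0.01. The SE is the log2 fold change divided by the root of F. The 10 genes and all lists were chosen with earlier results of these data known. By rule, pathway genes were named where called with TGF-β at either day or in the difference of responses, and close patterns were limited to the 3 nearest genes. The untested receptors, PDGFB, the HGF activators, FGF5, HIF1A and the markers were added after their values were seen.

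On simulated counts for D20+ TGF-β vs D20 (9490 genes, 100 changed per size), the test found 100% of log2 changes of 1 and 53% of changes of 0.5, with 1 false call. The simulation gave every gene the same spread and held no outlying library, so these shares do not hold for genes with more spread. FGF7, with an SE of 0.34 in this comparison, was not called at -0.97. Alternatives used DESeq2 1.42.0, limma 3.58.1, other filters and scalings, the replicate number as a block, and fits without single libraries. Flasks of the same number did not deviate together (r between -0.22 and 0.03), so that the numbers did not pair the samples. Counts of replicates differed by more than sampling noise in all conditions.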

Additional observations from a re-analysis of the deposited data

Results flagged for a closer look

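In 12 of the 62 tested genes of the pathway lists, and in 0 of the 9 tested genes described above (2 at an unadjusted p under 0.05), the response to TGF-β differed between day 1 and day 20 by edgeR's test of the difference (day 20 minus day 1, log2, adjusted p under 0.01), against 10.4% of all genes. Without D20+ TGF-β replicate 3 the calls of FURIN, SHC1 and FOSL1 were lost (-0.64, -0.42 and 0.62, adjusted p = 0.0116, 0.0122 and 0.015), and without both outlying libraries all 12 were called, among 23 of the 62. The calls over all genes also rose in that last fit, to 2264 of 9490 from 985 on all libraries.

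Among ligands, FGF1 rose at day 1 and fell at day 20 (1.08 and -0.75, difference -1.83, adjusted p = 0.000337), with means of 14.9 and 31.5 cpm at day 1 and 15.6 and 9.50 cpm at day 20. VEGFB differed by 0.92 (adjusted p = 0.00179), with responses of -0.19 and 0.73. Among binding proteins, the difference was -3.88 for A2M (responses -0.75 and -4.63), -1.01 for SPARC (1.09 and 0.07), -0.85 for SDC4 (-0.04 and -0.89) and -0.63 for the protease FURIN (0.37 and -0.26). Among the docking proteins it was -0.55 for FRS2 (0.41 and -0.14), -0.44 for SHC1 (-0.15 and -0.59) and -0.43 for GRB2 (0.05 and -0.38).

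Among the transcripts known to follow ERK activity, the difference was 1.33 for ETV1 (responses -0.45 and 0.88), 1.22 for ETV4 (0.37 and 1.59) and 0.69 for FOSL1 (-0.40 and 0.29). Of the responses that make up these differences, those of VEGFB, A2M, SDC4, FURIN, SHC1, GRB2, ETV1, ETV4 and FOSL1 at day 1, and of SPARC, FRS2, FURIN and FOSL1 at day 20, were not called on their own.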

How the results depend on the processing

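Of the 17 called results of the 10 members, 11 kept their call and direction under every alternative tried, namely those of PDGFC and HGF, the day 20 vs day 1 results of PDGFD, and all of PDGFRA but D20+ TGF-β vs D20. Those of PDGFD are no support, since the minimum level for testing fixed their direction. The numbers of members called, 5 and 3 with TGF-β at day 1 and day 20, and 4 and 5 at day 20 vs day 1 with and without TGF-β, became 8, 8, 7 and 5 with the 48 lanes taken as samples, a setting that counts lanes of a library as replicates, and 9, 6, 7 and 6 without both outlying libraries, an alternative chosen after seeing the data. In the difference of responses they were 0, then 2 and 1. With no gene filter, 5 members were called in D20+ TGF-β vs D20, and with no composition factor 3 in D20 vs D1. Without single libraries the ranges were 3 to 6, 2 to 4, 3 to 7, 3 to 6 and 0 to 0. Over all genes, 1271 were called in D1+ TGF-β vs D1, 802 with only the 6 libraries compared and 2642 without both outlying libraries, and 985 in the difference of responses, 2264 without them. With 48 lanes, 3934, 5205, 5762, 5934 and 3712 genes were called, against 1271, 2609, 3307, 3457 and 985. Leaving out 1 library gave 619 to 1880 genes in D1+ TGF-β vs D1 and 549 to 1719 in the difference.

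With the replicate number as a block (replicate block), 4, 3, 5, 5 and 0 members were called, and the counts over all genes moved by less than 1.5 times. PDGFD lost its call in D1+ TGF-β vs D1 (-1.54, adjusted p = 0.0127) and FGF7 gained one at day 20 vs day 1 under TGF-β (1.13, adjusted p = 0.00825). The numbers were no pairing, with 1 of 12 libraries closest to its own number.

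Values that changed sign were all of results that were not called, and the cause was not tested. With no composition factor, PDGFA at day 20 vs day 1 under TGF-β was 0.00045, PDGFC in D20 vs D1 -0.020, FGF7 in the difference 0.054 and FGFR1 in D20 vs D1 -0.042. With no gene filter, PDGFC was -0.023 and FGFR1 -0.044 in D20 vs D1, and with filterByExpr FGFR1 was -0.0072. Without both outlying libraries, PDGFC was -0.050 and FGF2 0.17 in D20 vs D1, and VEGFA -0.042 in the difference. Without single libraries, PDGFA ranged from -0.28 to 0.058 at day 20 vs day 1 under TGF-β and PDGFRB from -0.11 to 0.35 in D1+ TGF-β vs D1. In D20 vs D1, PDGFC ranged from -0.030 to 0.13, FGF2 from -0.30 to 0.19, FGFR1 from -0.060 to 0.087 and VEGFA from -0.022 to 0.36. In the difference, PDGFRB ranged from -0.42 to 0.025, FGF2 from -0.42 to 0.069, FGF7 from -0.50 to 0.32 and VEGFA from -0.072 to 0.30. Leaving out the composition factor moved the median of all genes by 0.11 in the difference. Low counts limit PDGFA, and PDGFD at day 1.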
